A study of Mus musculus with 4 samples.

Results

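The 10 genes described here are those by which liver endothelial cells mark their place in the lobule and signal to the cells around them. They were taken as a fixed list of symbols, 10 of the 32285 genes in the files, and all 10 were found once each and passed the filter on low counts. Wnt2, Wnt9b, Rspo3 and Kit are genes of the endothelium near the central vein, Dll4 and Efnb2 are genes of the endothelium on the portal side, Bmp2 and Bmp6 encode secreted growth factors, and Lyve1 and Stab2 encode scavenger receptors of the sinusoid. They were measured in endothelial cells of mouse liver by single-cell RNA sequencing, which counts the distinct RNA molecules of each gene (UMIs, unique molecular identifiers) in each cell.

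Blood enters a liver lobule at the portal tract, runs through sinusoids lined by fenestrated endothelial cells and leaves by the central vein. Endothelial cells along this path differ, and those near the central vein secrete Wnt ligands and the R-spondin that amplifies them, by which the neighbouring hepatocytes keep a pericentral programme. On the portal side Notch ligands and ephrins are the better known signals. BMP2 and BMP6 from the sinusoid tell hepatocytes how much hepcidin, the hormone of iron balance, to make, and the scavenger receptors clear waste molecules from the blood. Factors that endothelial cells send to their tissue are called angiocrine.

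All mice were male C57BL/6J animals bought at 5 weeks of age. The normal chow diet group (NCD) gave 1 library and the high-fat diet group (HFD) gave 2. HFD mice ate the fat-rich food for 14 weeks before 8 weeks of oral gavage with water, 22 weeks in all, and NCD mice received the same gavage on chow. The last group gave 1 library and had the diet of the HFD mice, with a herbal decoction, the Jiangtang Qingre Formula, in place of water in the gavage (JQF). The labels call the cells immune cells, and a marker check was therefore made on the endothelial cells used here. The labels give the livers sampled as n = 1 for NCD, n = 2 for HFD and n = 1 for JQF. The p-values of the group comparisons below therefore rest on the spread between the 2 HFD livers. The fit draws each gene's spread towards that of all genes (1 residual and a median of 7.74 prior degrees of freedom). A gene's SE and p-value are thus not its own HFD spread alone, and NCD and JQF have no spread of their own.

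Cells were taken as endothelial when they held at least 500 genes, at most 20% mitochondrial UMIs and at least 2 UMIs of Ptprb and Kdr together, which encode a receptor phosphatase and a VEGF receptor of vessels. This gate held 4084 cells of 5975 in NCD (68.4%), 149 of 6516 in HFD replicate 1 (2.29%), 1396 of 10259 in HFD replicate 2 (13.6%) and 681 of 8540 in JQF (7.97%). The median depth of these cells was 15643 UMIs in NCD and 7041 to 8366 in the other libraries. All 10 pan-endothelial markers were present in every library, in 85.2% of the gate cells of HFD replicate 1 (any marker) and 97.7 to 99.1% of those of the other libraries, with a summed level of 5861 CPM in NCD, 3941 and 5370 in the HFD libraries and 5578 in JQF. Of the gate cells, 94.6% of the NCD, 77.9% and 95.4% of the HFD and 94.0% of the JQF cells held at least 2 UMIs of the sinusoidal genes Clec4g, Fcgr2b, Oit3 and Gpr182. Markers of other cells moved with the groups. Ptprc, the leukocyte marker, was detected in 15.5% of NCD gate cells, 37.6% and 26.5% of the HFD cells and 20.1% of the JQF cells. Vwf, a marker of large vessels, was detected in 4.33%, 30.9% and 14.1%, and 16.6% in the same order. No gate barcode was shared between any pair of libraries apart from 1 between NCD and JQF.

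Upstream sequences are shown for the portal pair Dll4 and Efnb2, which turn up in the same cells more often than their frequencies give in NCD, HFD replicate 2 and JQF, and for the central gene Wnt9b, which met Efnb2 less often in those 3 libraries. They come from the RefSeq promoter table of build GRCm38.p6, which held 7 of the 10 members and no entry for Rspo3, Bmp2 and Lyve1. The stretches run 5′ to 3′ on the gene's own strand and end at the annotated start, and capitals mark the letters of the CCAAT box, CCAAT, a common promoter element. Dll4 lies on the plus strand (chr2:119325534-119325783), and Efnb2 (chr8:8661243-8661492) and Wnt9b (chr11:103749822-103750071) lie on the minus strand.
Dll4 upstream: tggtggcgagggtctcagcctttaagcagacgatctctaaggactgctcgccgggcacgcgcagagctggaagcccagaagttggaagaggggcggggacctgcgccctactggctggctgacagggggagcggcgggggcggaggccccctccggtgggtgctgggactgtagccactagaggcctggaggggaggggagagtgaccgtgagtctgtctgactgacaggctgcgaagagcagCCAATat
Efnb2 upstream: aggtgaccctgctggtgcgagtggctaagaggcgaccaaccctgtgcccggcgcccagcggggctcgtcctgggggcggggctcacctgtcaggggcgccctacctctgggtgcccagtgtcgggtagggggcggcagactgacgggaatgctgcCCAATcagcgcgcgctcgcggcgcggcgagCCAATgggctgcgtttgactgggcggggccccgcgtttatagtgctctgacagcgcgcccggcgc
Wnt9b upstream: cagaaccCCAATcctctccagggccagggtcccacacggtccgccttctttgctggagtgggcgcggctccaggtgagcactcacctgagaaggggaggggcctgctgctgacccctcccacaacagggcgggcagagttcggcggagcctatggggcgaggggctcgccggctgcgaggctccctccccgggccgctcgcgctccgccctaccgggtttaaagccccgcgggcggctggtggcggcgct

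The CCAAT box stood once in the Dll4 and Wnt9b stretches and at 2 places in the Efnb2 stretch. CCAAT or its reverse complement ATTGG was present in 34.5% of all 27025 promoters of that length. Searches on both strands for GATAA (GATA factors, in 23.0% of all promoters), TGGGAA (RBPJ, the Notch effector, 21.5%), CTTTGA (TCF/LEF, the Wnt effectors, 14.1%) and CGGAAG (ETS factors, 13.8%) gave no match in the 3 stretches shown. These matches describe letters only, and of the motifs searched no pair overlapped in these stretches.

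Wnt2, a ligand of the pericentral Wnt signal, was at 238 CPM in NCD, 206 in HFD replicate 1, 262 in HFD replicate 2 and 324 in JQF. CPM here scales the gene's UMIs to the sum of all UMIs of the gate cells of the library. The NCD value lay between the HFD replicates, so the groups overlapped, and the log2 fold change of HFD against NCD was -0.14 ± 0.38 (SE, adjusted p = 0.885, edgeR's quasi-likelihood test). After each cell had been thinned to 2000 UMIs, which sets the libraries at 1 depth, Wnt2 was detected in 33.5% of NCD cells, 31.7% and 36.2% of HFD cells and 43.1% of JQF cells. In T cells of the same libraries (Cd3 genes present, Ptprb and Kdr absent), at the same 2000 UMIs, the highest share with a Wnt2 UMI was 0.136%.

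Wnt9b, the other pericentral Wnt ligand, was at 12.8 CPM in NCD, 24.6 and 24.0 in HFD replicates 1 and 2, and 40.3 in JQF. NCD was the lowest library and JQF the highest, and the HFD values were close to each other (24.3 ± 0.392 CPM, SD, n = 2). The fold change of HFD over NCD was 0.81 ± 0.33 on the log2 scale and did not pass (adjusted p = 0.210, edgeR). Few cells carried the gene: 1.94% of thinned NCD cells, 4.14% and 3.69% of HFD cells and 5.03% of JQF cells and no T cell of any library had a Wnt9b UMI at that depth.

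Rspo3, the R-spondin that strengthens Wnt signals, was at 116 CPM in NCD, 878 in HFD replicate 1, 487 in HFD replicate 2 and 559 in JQF. Both HFD libraries lay above NCD, and HFD against NCD gave a log2 fold change of 2.43 ± 0.57 (adjusted p = 0.0411, edgeR), so that Rspo3 rose in this fit. The call was lost in 4 of 12 alternative settings, among them the one without cells holding Vwf (0.90, adjusted p = 0.279, edgeR). Rspo3 was the 1 member of the 10 called in this comparison, in which 6.39% of the 15352 genes tested were called, 4.25% higher and 2.14% lower. Thinned cells with an Rspo3 UMI made up 6.40% of NCD, 29.0% and 17.6% of HFD and 15.2% of JQF, and at most 0.204% of T cells.

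Kit, a receptor tyrosine kinase of pericentral sinusoids, was at 257 CPM in NCD, 103 and 150 in the HFD libraries and 158 in JQF. NCD was the highest library and JQF lay next to HFD replicate 2. The log2 fold change of HFD against NCD was -1.13 ± 0.36 and did not pass (adjusted p = 0.113, edgeR). Thinned detection was also highest in NCD and lowest in HFD replicate 1, with 34.0% of NCD cells, 20.0% and 25.8% of HFD cells and 25.2% of JQF cells.

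On the portal side, Dll4, the Notch ligand, was at 86.9 CPM in NCD, 29.7 and 62.6 in the HFD libraries and 56.1 in JQF. Efnb2, an ephrin of arterial and portal endothelium, was at 162 CPM in NCD, 44.0 and 108 in the HFD libraries and 124 in JQF. For both genes NCD was the highest library, HFD replicate 1 the lowest and JQF close to HFD replicate 2. The log2 fold changes of HFD against NCD were -0.98 ± 0.41 for Dll4 (adjusted p = 0.212) and -1.17 ± 0.46 for Efnb2 (adjusted p = 0.191), neither past the threshold in edgeR. After thinning, Dll4 was found in 15.7% of NCD, 6.90% and 13.4% of HFD and 11.4% of JQF cells, and Efnb2 in 23.3%, 13.1% and 18.8%, and 19.8%.

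**Figure D1:**
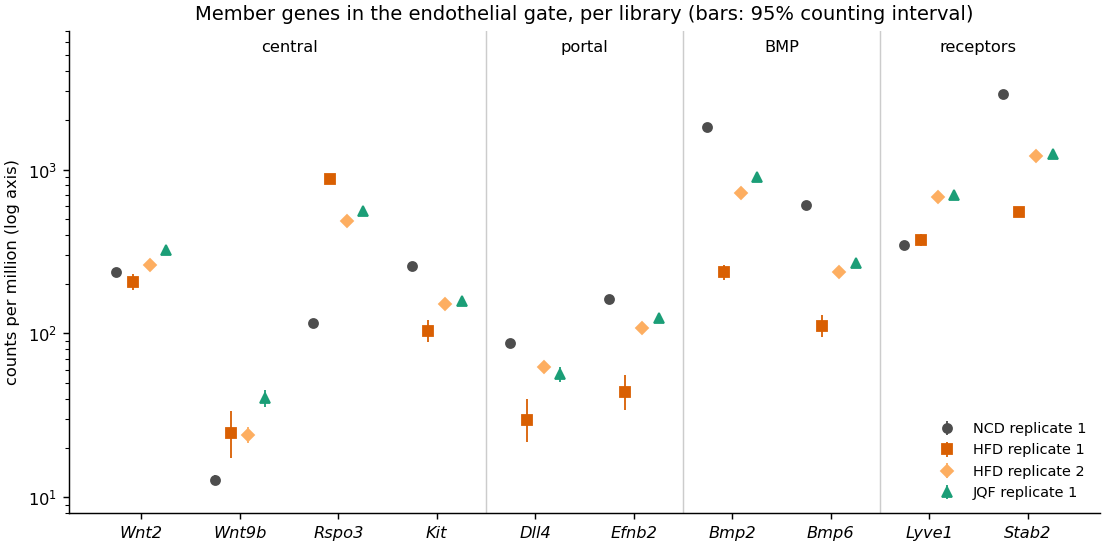
CPM of each of the 10 genes (log axis) in the endothelial gate of the 4 libraries, with 95% Poisson intervals for counting error only. NCD stood highest for Kit, Dll4, Efnb2, Bmp2, Bmp6 and Stab2, and lowest for Wnt9b, Rspo3 and Lyve1.

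The BMP ligands were highest in NCD. Bmp2 was at 1834 CPM in NCD, 237 in HFD replicate 1, 716 in HFD replicate 2 and 896 in JQF. Bmp6 was at 607 CPM in NCD, 111 and 237 in the HFD libraries and 270 in JQF. The HFD replicates also differed from each other, by 3.02 times for Bmp2 and 2.13 times for Bmp6. With that spread the log2 fold changes of HFD against NCD, -2.06 ± 0.65 for Bmp2 (adjusted p = 0.110) and -1.91 ± 0.48 for Bmp6 (adjusted p = 0.0516), did not pass in edgeR. Detection in thinned cells was 88.5% in NCD, 39.3% and 66.8% in the HFD libraries and 69.5% in JQF for Bmp2, and 55.8%, 20.7% and 33.9%, and 36.3% for Bmp6.

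Stab2, a hyaluronan scavenger receptor, was at 2902 CPM in NCD, 555 and 1206 in the HFD libraries and 1239 in JQF. It followed the order of the BMP ligands, with NCD highest and HFD replicate 1 lowest, and its log2 fold change of -1.84 ± 0.64 did not pass (adjusted p = 0.141, edgeR). Lyve1, a hyaluronan receptor of sinusoidal and lymphatic endothelium, went another way. It was at 347 CPM in NCD, 373 and 685 in the HFD libraries and 700 in JQF, so NCD was the lowest library by a narrow margin to HFD replicate 1, and the log2 fold change was 0.49 ± 0.52 (adjusted p = 0.666, edgeR). Stab2 was detected in 93.1% of thinned NCD cells, 37.2% and 72.3% of HFD cells and 72.1% of JQF cells, and Lyve1 in 34.0%, 33.1% and 58.3%, and 50.2%. The highest shares of T cells with a UMI at that depth were those of NCD, 2.66% for Stab2 and 2.00% for Bmp2, the library whose near-empty droplets (up to 100 UMIs) held Stab2 at 1172 CPM and Bmp2 at 786 CPM against 20.6 to 106 and 5.02 to 55.1 CPM in the other libraries.

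Across the list, NCD was the highest library for 6 members and the lowest for 3, and HFD replicate 1 was the lowest for 7. JQF lay nearer to HFD replicate 2 than the HFD replicates lay to each other for 8 members, all but Wnt2 and Wnt9b, and was the highest library for Wnt2, Wnt9b and Lyve1. Detection at 2000 UMIs was lower in both HFD libraries than in NCD for the same 6 members, Kit, Dll4, Efnb2, Bmp2, Bmp6 and Stab2, and higher in both for Rspo3 and Wnt9b.

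**Figure D2:**
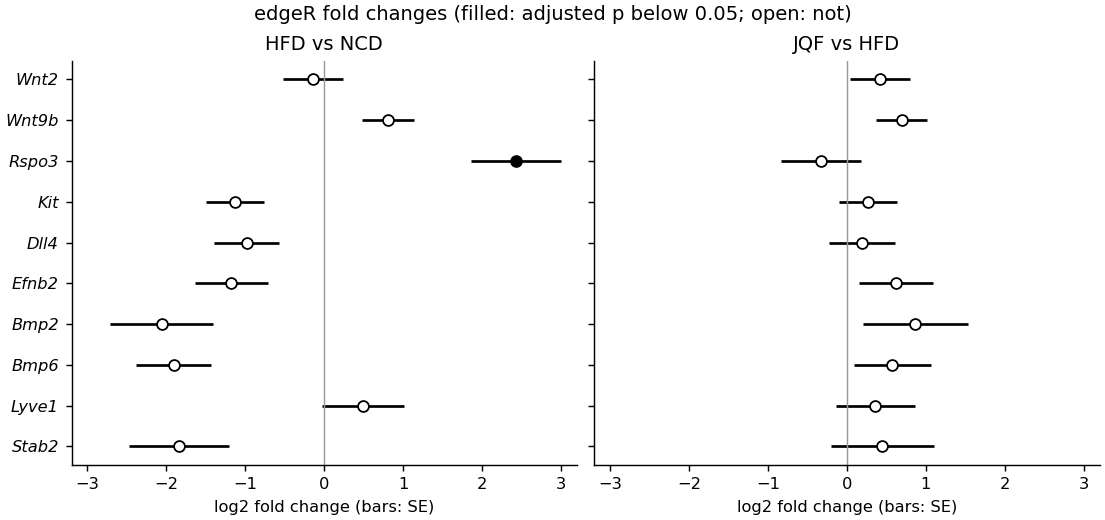
Log2 fold changes of the 10 genes from edgeR with SE bars, HFD against NCD on the left and JQF against HFD on the right. Filled points have an adjusted p below 0.05, which Rspo3 alone reached on the left and no gene on the right.

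The spread in this test came from the HFD pair alone (1 residual degree of freedom) and was shared over genes by the fit. The calls moved with how cells were chosen. Over 12 alternative settings Rspo3 passed in 8, Bmp6 in 8, Bmp2 in 7, Stab2 in 5, Kit, Efnb2 and Wnt9b in 3 each, Dll4 and Lyve1 in 1 each and Wnt2 in 0. In the subset of gate cells with sinusoidal genes, Bmp2 had a log2 fold change of -1.91 (adjusted p = 0.00228), Bmp6 of -1.76 (adjusted p = 0.000442) and Stab2 of -1.67 (adjusted p = 0.00522), all by edgeR, where in the whole gate they missed the threshold. Leaving out cells with a Ptprc UMI gave -1.59 for Bmp2, -1.38 for Bmp6 and -1.33 for Stab2, each past the threshold (the highest adjusted p of the 3 was 0.000753, edgeR), and Lyve1 passed there at 1.06 (adjusted p = 0.00637). Without HFD replicate 1 the values were -1.48 for Bmp2, -1.48 for Bmp6 and -1.39 for Stab2, and without HFD replicate 2 they were -3.05, -2.54 and -2.48, with no test in either case.

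Much of the Rspo3 difference lay in cells with Vwf. Cells of the gate with a Vwf UMI numbered 177 in NCD, 46 and 197 in the HFD libraries and 113 in JQF. Rspo3 in these cells was at 917 CPM in NCD, 2475 and 1979 in the HFD libraries and 2263 in JQF, whereas in cells without a Vwf UMI it was at 65.7, 109 and 152, and 113 CPM. The Vwf cells held 46.9% of the Rspo3 UMIs of NCD, 91.6% and 74.6% of those of HFD and 83.9% of those of JQF. Leaving them out, a setting chosen after seeing the data, removed 4.33% of NCD gate cells against 30.9% and 14.1% of HFD gate cells. The log2 fold change of HFD against NCD was then 0.90 ± 0.46 (adjusted p = 0.279, edgeR). Wnt9b behaved likewise. It was at 63.3 CPM in Vwf cells of NCD, 65.7 and 101 in HFD and 151 in JQF, and at 9.56, 4.79 and 6.80, and 11.3 CPM without Vwf, and its fold change turned to -0.74 ± 0.59 (adjusted p = 0.584, edgeR) once Vwf cells were left out. For Rspo3 both the share of Vwf cells in the gate and the level within them were higher in HFD and JQF than in NCD.

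**Figure D3:**
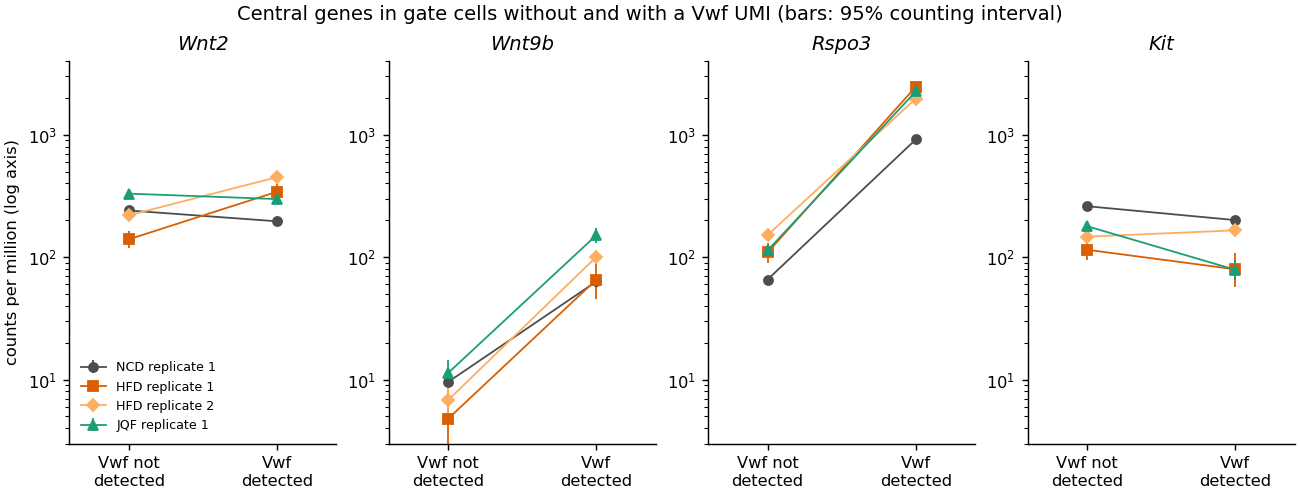
CPM (log axis, 95% Poisson intervals) of the 4 central genes in gate cells without and with a Vwf UMI, 1 line for each library. Rspo3 and Wnt9b stood higher with Vwf in all 4 libraries, while Kit stood lower with Vwf in NCD, HFD replicate 1 and JQF and Wnt2 had no common direction.

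Wnt2 and Kit were spread over many more cells. The 5% of gate cells with most UMIs of a gene held 22.9% of NCD Wnt2 and 25.1% of NCD Kit, but 76.3% of NCD Wnt9b and 92.7% of NCD Rspo3. For Rspo3 this share was lower in the other libraries, at 39.9% and 64.6% in HFD and 66.1% in JQF. It was 63.2% and 85.4%, and 75.2% for Wnt9b, 28.9% and 32.5%, and 23.0% for Wnt2, and 23.75% and 31.5%, and 28.4% for Kit. Wnt2 in Vwf cells was at 196 CPM in NCD, 342 and 451 in the HFD libraries and 298 in JQF, against 241, 140 and 220, and 330 CPM in the other cells. The Vwf cells lay above the rest in both HFD libraries and below it in NCD and JQF. Stab2, by contrast, was lower in Vwf cells of every library, at 1372 against 2999 CPM in NCD, 45.8 against 799.7 and 447 against 1376 in HFD, and 200.3 against 1511 in JQF.

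The balance of central and portal genes was taken as the UMIs of Wnt2, Wnt9b, Rspo3 and Kit over those plus the UMIs of Dll4 and Efnb2. The central share was 71.5% in NCD (95% exact Clopper-Pearson interval 71.1 to 71.9), 94.3% in HFD replicate 1 (93.2 to 95.2), 84.4% in HFD replicate 2 (83.8 to 85.0) and 85.7% in JQF (85.0 to 86.5). Such intervals cover counting error only. NCD was the lowest library, HFD was at 89.3% ± 6.99 (SD, n = 2), and JQF lay between the HFD replicates. The share was not tested over libraries. The order of NCD below the rest held when Vwf cells were left out (70.3% in NCD, 85.2% and 75.0% in HFD, 78.8% in JQF), and when Rspo3 was left out of the sum (67.1%, 81.9% and 71.9%, and 74.4%), both settings chosen after seeing the data. Vwf cells and Rspo3 were not left out together, so whether the order holds without both was not tested. In cells without Vwf, Wnt2, Wnt9b and Kit had 16221, 644 and 17570 UMIs in NCD, against 5820 of Dll4 and 10622 of Efnb2. In the same gene order the UMIs were 146, 5 and 120 against 30 and 37 in HFD replicate 1. HFD replicate 2 had 2196, 68 and 1470 against 659 and 1093, and JQF had 1780, 61 and 965 against 292 and 630. Counted in cells rather than UMIs, central-only cells were 66.9% of cells with genes of 1 side in NCD, 83.1% and 68.4% in the HFD libraries and 76.2% in JQF (exact intervals 64.1 to 69.7 for NCD, 72.9 to 90.7 and 64.7 to 72.0 for HFD and 71.1 to 80.9 for JQF), so on this count HFD replicate 2 was not apart from NCD beyond counting error. It covers cells of 1 side only, and cells with genes of both sides were 65.5% of the gate in NCD, 28.2% and 40.4% in the HFD libraries and 47.0% in JQF. In NCD these cells were deeper (median 18707 UMIs, against 8552 in central-only cells), so the classes were made at unequal depth.

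JQF against HFD gave no call among the 10 members, and 0.287% of the 15352 genes tested were called (44 genes), 0.248% higher and 0.0391% lower. Wnt9b had the smallest p, with a log2 fold change of 0.69 ± 0.32 (adjusted p = 0.844, edgeR). The other fold changes were 0.86 ± 0.66 for Bmp2, 0.62 ± 0.47 for Efnb2, 0.58 ± 0.49 for Bmp6, 0.45 ± 0.65 for Stab2, 0.42 ± 0.38 for Wnt2, 0.36 ± 0.50 for Lyve1, 0.27 ± 0.37 for Kit, 0.19 ± 0.42 for Dll4 and -0.33 ± 0.51 for Rspo3. All 10 missed the threshold under each of the 12 alternatives as well. Set side by side with no test, JQF was at 4.80 times NCD for Rspo3, 3.16 times for Wnt9b, 2.02 times for Lyve1 and 1.36 times for Wnt2, and NCD was at 2.34 times JQF for Stab2, 2.25 times for Bmp6, 2.05 times for Bmp2, 1.62 times for Kit, 1.55 times for Dll4 and 1.31 times for Efnb2.

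Co-detection within single cells was described as the log2 odds ratio of finding both genes in a cell at 2000 UMIs, above 0 where the pair met more often than its frequencies give. It has no p, since cells of 1 library share their source and depth. Of the 6 central pairs, 5 were above 0 in all 4 libraries, as were 19 of the 30 pairs with a BMP ligand or scavenger receptor, and Wnt9b with Kit was above 0 in all but JQF (-0.27). Wnt9b with Rspo3 stood out, at 4.44 in NCD, 3.33 and 5.22 in the HFD libraries and 6.65 in JQF. In NCD 40 cells held both where 4.61 were expected, in HFD replicate 2 42 cells against 8.46, and in JQF 31 of the 33 Wnt9b cells held Rspo3. Wnt2 with Kit, no higher in NCD than Wnt2 with Bmp2 (0.80), was at 0.76 in NCD, 1.54 and 1.16 in the HFD libraries and 1.37 in JQF, and Wnt2 with Rspo3 at 1.15, 2.48 and 2.53, and 1.37.

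Central and portal genes met less often in most pairs. Of the 8 central-portal pairs 5 were below 0 in all 4 libraries and 0 were above 0 in all 4, and at 5000 UMIs a cell the pairs below 0 throughout were 3. Of the 30 pairs with a BMP ligand or scavenger receptor, 6 were below 0 in all 4 libraries at 2000 UMIs. Each of these 6 held Rspo3 or Wnt9b. Rspo3 with Efnb2 was at -1.48 in NCD, -1.09 and -2.88 in the HFD libraries and -4.33 in JQF, and Rspo3 with Dll4 at -2.10, -1.48 and -0.87, and -3.36. Kit with Efnb2 was nearer to 0, at -0.58, -0.31 and -0.55, and -0.51. The exceptions involved Wnt2 and Wnt9b: Wnt2 with Dll4 was below 0 in NCD (-0.29) and above it in HFD (0.61 and 0.08) and JQF (0.23), and Wnt2 and Wnt9b with Efnb2 were above 0 in HFD replicate 1 alone (1.11 and 0.84). That library held only 10 cells with Dll4, 19 with Efnb2 and 6 with Wnt9b at this depth, and 1 cell with both Wnt9b and Efnb2. At 5000 UMIs Wnt2 with Dll4 was below 0 in HFD replicate 2 (-0.10) and JQF (-1.23). In HFD replicate 1 Wnt9b with Efnb2 was then below 0 (-2.88) and Kit with Dll4 (1.39) and with Efnb2 (1.01) above it. These directions thus differed from those at 2000 UMIs. The 5000-UMI set also held fewer cells (3378 in NCD, 111 and 928 in HFD, 532 in JQF), so depth and the choice of cells cannot be told apart. The portal pair Dll4 with Efnb2 was at 0.58 in NCD, 0.91 in HFD replicate 2 and 0.77 in JQF, and HFD replicate 1 had 1 such cell where 1.31 were expected. These are the genes whose upstream stretches are printed above.

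**Figure D4:**
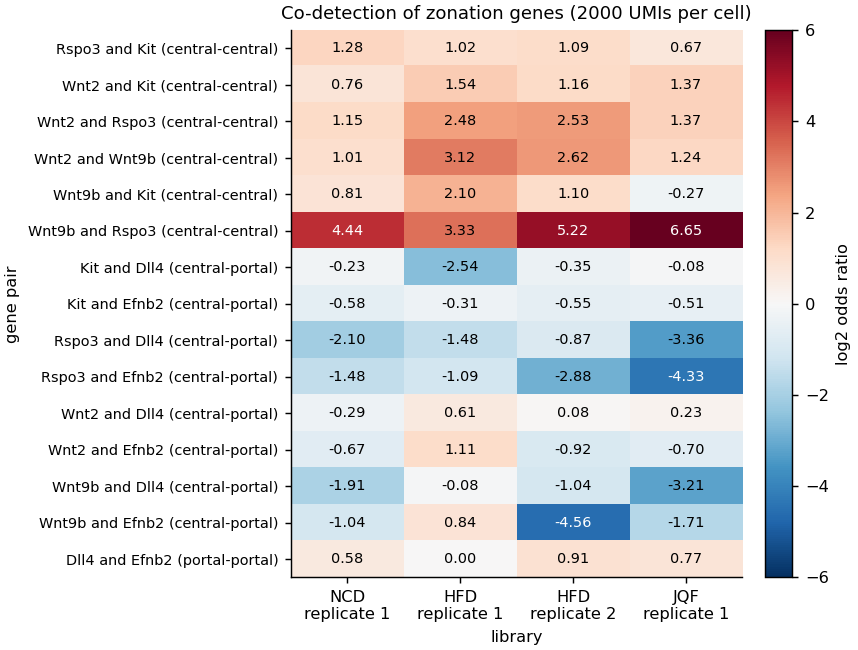
Log2 odds ratios of co-detection for the 15 pairs of zonation genes in the 4 libraries, each cell thinned to 2000 UMIs, with 0.5 added to each cell of the 2-by-2 count. Central pairs are red in nearly every library and Wnt9b with Rspo3 deepest (3.33 to 6.65), while Rspo3 is blue with both portal genes throughout.

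At 2000 UMIs Rspo3 was below 0 with both scavenger receptors and both BMP ligands in all 4 libraries: with Lyve1 (-2.34 in NCD, -2.68 and -2.43 in HFD, -4.33 in JQF), with Stab2 (-2.40, -1.21 and -1.86, -3.43), with Bmp2 (-1.02, -0.50 and -0.67, -1.01) and with Bmp6 (-0.01, -0.79 and -1.59, -1.06). With Lyve1 and Stab2 it stayed below 0 in all 4 libraries at 5000 UMIs too. With Bmp2 it was then above 0 in NCD (0.23) and HFD (0.59 and 0.16) and below it in JQF (-0.40). With Bmp6 it was above 0 in HFD replicate 1 (0.16). The direction with the BMP ligands thus differed from that at 2000 UMIs, in a set with fewer cells. Wnt9b was below 0 with Lyve1 and Bmp6 in all 4 libraries and with Stab2 and Bmp2 in 3 of 4, all but HFD replicate 1. At 5000 UMIs it was below 0 with Lyve1 and Stab2 in all 4, but above 0 in NCD with Bmp2 (0.77) and Bmp6 (0.23). Kit and Wnt2 were above 0 with both Bmp2 and Stab2 in all 4 libraries. Bmp2 with Stab2 was at 3.75 in NCD, 3.12 and 2.13 in the HFD libraries and 3.21 in JQF, and Lyve1 with Stab2 at 2.39, 3.91 and 2.36, and 3.25, so scavenger receptors and Bmp2 met in the same cells more often than their frequencies give.

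The genes most like each member were read from the phi coefficient of detection across 3702 thinned NCD cells, with 8420 genes compared. This is a correlation over cells that share a library, given without p. Wnt2 and Kit had the same 3 leaders, Cdh13 (phi 0.18 for Wnt2 and 0.17 for Kit in NCD), a cadherin, Plpp1, a lipid phosphatase, and Car8. Wnt9b was led by Rspo3 (0.28), Selp (0.18), the adhesion molecule P-selectin, and Rbms3 (0.15), and Rspo3 by Selp (0.39), Rbms3 (0.39) and Fabp4 (0.29), a fatty acid carrier. Efnb2 was led by Cd36 (0.16), a fatty acid transporter, Ntn4 (0.14), a netrin, and Msr1 (0.14), a scavenger receptor, and Dll4 by Mrc1, Msr1 and Cd36 (0.08 each). Bmp2 and Stab2 shared Plpp3 (0.40 and 0.50), Selenop and Maf, while Bmp6 was led by Stab2 (0.21) and Lyve1 by Ctsl (0.17), a cathepsin, then Stab2 (0.14) and Flt4 (0.13). All of these pairs were above 0 in the other 3 libraries too.

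To ask what else separates the 2 sides, cells with central genes and no portal gene (central-only: 729 in NCD, 64 and 449 in HFD, 234 in JQF) were set against cells with portal genes and no central gene (portal-only: 360, 13 and 207, 73). The counts were summed per library and class, and the 6 genes that define the classes were left out. Of 11617 genes 236 were called (2.03%), 118 on each side (1.02% each). Without NCD replicate 1 the count was 66 and without JQF replicate 1 it was 120, and without Vwf cells it was 74. Bmp2 (-0.34 ± 0.20, adjusted p = 0.695), Bmp6 (-0.01 ± 0.40, adjusted p = 1.00), Lyve1 (0.21 ± 0.31, adjusted p = 0.980) and Stab2 (-0.56 ± 0.16, adjusted p = 0.161) were not called by edgeR (negative is higher in central-only cells). Over 15 alternative settings Stab2 passed in 4, among them the gate at 5 UMIs (-0.57, adjusted p = 0.0454, edgeR) and cells without Ptprc (-0.66, adjusted p = 0.00919, edgeR), and Bmp2 in 1, while after thinning to 2000 UMIs Stab2 was at -0.17 (adjusted p = 0.819, edgeR). Stab2 was higher in central-only cells in all 4 libraries, at 2902 against 2069 CPM in NCD, 561 against 406 and 1092 against 935 in HFD, and 1106 against 636 in JQF.

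On the portal side the 10 genes with the smallest p were Nrg1, Sdc1, Vegfc, Lmo7, Atp13a3, Ly6c1, Hmcn1, Abcg2, Ntn4 and Gja5. Nrg1, a neuregulin, was at 221 CPM in portal-only and 1.61 CPM in central-only cells of NCD and its log2 fold change was 6.72 ± 0.23 (adjusted p = 1.69e-05, edgeR). It was detected in 8.33 to 30.1% of portal-only cells of a library, and 3 cells held 30.9% of its UMIs in the 653 portal-only cells. Vegfc, the lymphatic growth factor, was found in 26.1 to 52.1% of portal-only cells of the 4 libraries, Ntn4 in 72.2 to 86.3% and Gja5, an arterial connexin, in 3.86 to 24.7%. The central list was led by Hba-a2, Hba-a1, Lhx6, Hbb-bs, Pcdh9, S100a9, Hbb-bt, Ctnnal1, Plppr5 and Slco3a1. Of these the globins and S100a9 came from few cells: 3 cells held 71.9 to 91.3% of their UMIs in the 1476 central-only cells. Lhx6, a homeobox gene, was broader, in 21.4 to 34.4% of central-only cells, with a log2 fold change of -6.09 ± 0.34 (adjusted p = 0.000151, edgeR), and Slco3a1, an organic anion transporter, was in 62.4 to 65.3%.

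**Figure D5:**
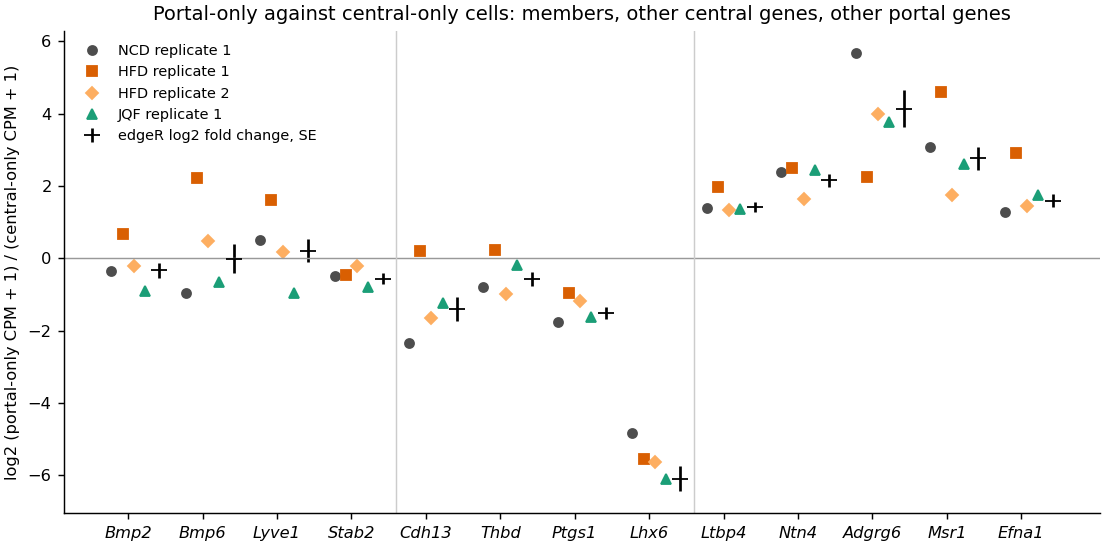
Log2 ratio of portal-only to central-only CPM (with 1 added to each) in the 4 libraries, and edgeR's log2 fold change with its SE, for the 4 members outside the class rule, 4 other central genes and 5 other portal genes. All 5 other portal genes lie above 0 in every library, Ptgs1 and Lhx6 lie below 0 in every library, and Bmp2, Bmp6 and Lyve1 straddle 0.

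Lists of related genes were then read in the same way, by counts, against 1.02% of all genes called on each side. The lists were chosen with earlier results of these data known, so the counts here and below are not an independent check. All 5 other portal genes passed on the portal side, among them Adgrg6 (4.13), Msr1 (2.76) and Ntn4 (2.16, log2 fold changes), and 2 of 4 other central genes passed on the central side, Lhx6 and Ptgs1 (-1.51). Msr1 and Ntn4 were also among the 3 genes most like Efnb2, which defines the portal class, in NCD cells. Of 10 Notch and ephrin genes tested 3 passed on the portal side and 0 on the central side: Jag1, a Notch ligand (2.07), Efnb1 (2.62) and Hes1, a Notch target (0.96). Of 15 Wnt genes 2 passed on the central side, the inhibitor Dkk3 (-1.91) and the co-receptor Lrp5 (-0.80), and of 11 BMP genes Bmp4 passed on the central (-3.87) and the modulator Bmper on the portal side (2.22). Large-vessel genes split, with 4 of 11 on the portal side, among them Ly6c1 (5.05), Gja5 (6.80) and Ly6a (1.78), and Selp on the central side (-2.80), and 0 of 11 sinusoidal genes passed. Kitl was the 1 of 7 other angiocrine genes that passed, on the portal side (0.98). Both erythroid genes (Hba-a1 and Hbb-bs) and 2 of 3 neutrophil genes (S100a9 and S100a8) passed on the central side, and the other marker lists had 0 calls. No dendritic or epithelial list was among them. Outside the gate, dendritic-marker cells held Kit and epithelial-marker cells held Efnb2 (values below), and both genes define the classes. The median log2 fold change over all genes was -0.02, over the portal list 2.16 and over the central list -1.46.

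For HFD against NCD, where 4.25% of all genes tested were called higher and 2.14% lower, 2 of 17 Wnt and R-spondin genes fell, Dkk3 (-1.81) and the co-receptor Lrp6 (-1.54), and 0 rose, with a median of -0.56. Dkk3 was at 67.2 CPM in NCD, 14.2 and 25.3 in the HFD libraries and 59.3 in JQF. Of 11 BMP genes 2 rose and 0 fell, Bmp4 (4.28) and Bmper (1.51), with a median of 0.33, and Bmp4 stood at 3.197 CPM in NCD, 116 and 25.1 in the HFD libraries and 44.6 in JQF. Of 7 other angiocrine factors 2 fell, the chemokine Cxcl12 (-2.90) and Kitl (-1.59), the ligand of Kit, with a median of -0.89. In central-only cells Cxcl12 was at 44.7 CPM in NCD, 0 and 2.27 in the HFD libraries and 65.0 in JQF. The stellate marker Dcn was there at 174, 4.27 and 3.68, and 466 CPM. Whether the Cxcl12 UMIs came from stellate cells was not tested. Kitl was at 322 CPM in NCD, 90.5 and 141 in the HFD libraries and 172 in JQF, the order seen for Kit. Of 11 Notch and ephrin genes 0 passed (median 0.35), of which Notch1, Ephb4, Hes1 and Efnb1 were the highest in level. All 11 sinusoidal genes, 0 of which passed, were below 0 (median -0.81), among them Maf (-1.08), Mrc1 (-1.46), Clec4g (-0.81) and Fcgr2b (-1.24), with a summed level of 14304 CPM in NCD, 5221 and 10263 in the HFD libraries and 11100 in JQF. Of the other central genes 0 of 4 passed (median 0.14) and of the other portal genes 0 of 5 (median -0.04). The median over all genes tested was 0.00.

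Markers of other cells moved as well in the gate, again against 4.25% of all genes called higher and 2.14% lower. Of 12 large-vessel genes 2 rose, Vwf (4.33) and Selp (1.73), and 0 fell. Macrophage markers rose for 2 of 4, Adgre1 (2.82) and Cd5l (3.14), with a summed level of 91.2 CPM in NCD, 234 and 949.5 in the HFD libraries and 125 in JQF. Monocyte markers rose for 3 of 3, from 3.4 CPM summed in NCD to 177 and 92.4 in HFD, with 117 in JQF, and neutrophil markers for 1 of 3, Csf3r (1.86). Stellate markers fell for 2 of 5, Dcn (-3.84) and Reln (-3.05), from 125 CPM summed in NCD to 14.9 and 14.2 in HFD, with 246 in JQF, and Dcn was the 1 gene of these lists that rose in JQF against HFD (5.09). T cell markers summed to 23.2 to 65.9 CPM and B cell markers to 3.9 to 15.8 CPM, with 0 of 3 passing in each. The part of other cells in the members' values was not tested, beyond the settings without Ptprc and Vwf cells given above. Dendritic and epithelial markers were not among the lists. Hepatocyte (0 of 5), pan-endothelial (0 of 10, of which 9 were below 0, median -0.44), lymphatic (0 of 2) and erythroid (0 of 2) lists had no call, nor did Ptprc (1.60), and the 3 mast cell markers were at 0 UMIs in all 4 libraries.

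Outside the endothelial gate the members parted ways. How much of a gene fell inside also depended on gate size, 68.4% of kept NCD cells against 2.29 to 13.6% for the other libraries. A low share alone does not show more of the gene elsewhere. With no Ptprb or Kdr UMI in the cell, Kit was highest for NCD (39.9 CPM), with HFD replicates at 35.9 and 19.2 and JQF at 21.7. Efnb2 exceeded its NCD level (8.62 CPM) for JQF alone (11.3), and Bmp6 its own (6.45) for HFD replicate 1 alone (9.53). Wnt2, Wnt9b and Rspo3 had at least 97.4% of their UMIs of a library in the gate, in all 4 libraries. Kit had 95.5% there in NCD but 6.24% and 49.97% in HFD and 33.2% in JQF. In cells with dendritic markers (Flt3, Zbtb46, Xcr1 and Clec9a), a gate chosen after seeing the data, Kit was at 183 CPM in NCD (88 cells), 90.8 and 85.6 in HFD (757 and 729 cells) and 84.3 in JQF (721 cells), against at most 6.20 CPM in T or B cells. Efnb2 had 98.4% of its UMIs in the endothelial gate in NCD, 12.8% and 76.1% in the HFD libraries and 42.8% in JQF, and Bmp6 99.6%, 21.8% and 88.6%, and 77.6%. In cells with epithelial markers (Epcam, Krt8, Krt19 and Sox9), chosen in the same way, Efnb2 was at 58.3 CPM in NCD (15 cells), 87.3 and 45.7 in HFD (218 and 152 cells) and 66.1 in JQF (303 cells), and Bmp6 at 130, 123 and 34.4, and 40.8 CPM. Macrophage-marker cells held Stab2 at 81.1 CPM in NCD, 55.1 and 62.8 in the HFD libraries and 63.0 in JQF. Few stellate-marker cells were captured (NCD 2, HFD 2 and 15, JQF 30). Rspo3 was found in 5 of the 15 cells of HFD replicate 2 (79.6 CPM) and 11 of the 30 JQF cells (75.6 CPM). It was also found in 1 NCD cell and 0 cells of HFD replicate 1. With so few such cells, the high share of Rspo3 UMIs in the endothelial gate does not show that Rspo3 is confined to endothelium.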

How the data were processed

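Livers were perfused and digested, red cells and dead cells were removed, and droplet libraries were sequenced. Per the labels and methods, the authors aligned reads to mm10 with Cell Ranger 6.0.1 and used Seurat 4.0.3, whereas the headers of the deposited filtered and unfiltered matrices name versions 7.0.0 and 4. Whether intronic reads were counted is not given in the sources used here. The deposited values are UMI counts per gene and barcode, not normalized, and replicates were not pooled.

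From the filtered counts, cells with at least 500 genes, at most 20% mitochondrial UMIs and at least 2 UMIs of Ptprb and Kdr were summed per library, 1546691 to 71638673 UMIs. edgeR 4.0.16 (R 4.3.3; TMM scaling, filterByExpr, quasi-likelihood test, Benjamini-Hochberg adjustment over all genes tested, threshold 0.05) was fitted to the 4 libraries with group as the term, and to sums of portal-only and central-only cells with library as a block. The study's tests over single cells were not followed, since cells are not replicates. The SE is the log2 fold change divided by the root of the F statistic. JQF against NCD, 1 library each, is given as values. Intervals are exact and cover counting error only. For detection and co-detection each cell was thinned to 2000 UMIs, which left 3702, 145, 1300 and 656 cells in NCD, HFD replicates 1 and 2 and JQF and left out 382, 4, 96 and 25. Doublets predicted with scanpy 1.11.5 made up 8.15 to 16.9% of gate cells; they were kept, and leaving them out was an alternative. Near-empty droplets came from the unfiltered counts.

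The members and lists were chosen with earlier results of these data known. The text names all 10 members; per list, at most 4 genes with the smallest p that passed, or else the highest levels; per member, the 3 genes with the highest phi; and, between the classes, the 10 genes on each side with the smallest p and 1 direction in all 4 libraries. The fits were tested on counts simulated from these libraries with 1 preset spread for all genes, not the spread seen between the HFD livers. Of genes changed 2-fold, 58% were recovered for HFD against NCD, 48% for JQF against HFD and 90.5% between the classes. Of genes changed 4-fold, 100% were recovered in each comparison. These shares do not cover genes that vary more between livers. Alternatives were DESeq2 1.42.0, DESeq2 size factors, library totals, no gene filter, looser and stricter gates, thinning, the sinusoidal subset, cells without Ptprc or Vwf, and leaving out each library. All 10 members matched GRCm38 annotation, with no gene on the same strand overlapping them.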

Additional observations from a re-analysis of the deposited data

Results flagged for a closer look

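Efnb2 was present outside the endothelial gate. In kept cells with no Ptprb or Kdr UMI, which enter no comparison, it was at 11.3 CPM in JQF (95% Poisson interval 10.7 to 12.0), above the 8.62 CPM of NCD (7.28 to 10.1), while the HFD replicates were at 7.15 and 3.94 CPM. Bmp6 in such cells was at 9.53 CPM in HFD replicate 1 (8.80 to 10.3) against 6.45 CPM in NCD, with 3.88 in HFD replicate 2 and 5.36 in JQF. Lyve1 in such cells was at 5.55 CPM in HFD replicate 2 (5.08 to 6.06) against 2.05 CPM in NCD, with 0.264 in HFD replicate 1 and 2.44 in JQF. These cells are a mixture whose make-up differed between libraries. Epithelial-marker cells (303 in JQF, 218 in HFD replicate 1, 15 in NCD) held 452 of the 1069 Efnb2 UMIs of JQF and 421 of the 615 Bmp6 UMIs of HFD replicate 1, and 1677 macrophage-marker cells (95 in NCD) held 233 of the 497 Lyve1 UMIs of HFD replicate 2. The counting intervals do not cover that difference in make-up.

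Bmp6 was higher in central-only cells in NCD and in portal-only cells in both HFD libraries. These classes are set by genes, and no position in the lobule was measured. The log2 ratio of portal-only to central-only CPM was -0.95 in NCD and 2.23 and 0.47 in HFD replicates 1 and 2, with -0.66 in JQF. The difference was not tested, and the value of HFD replicate 1 rests on 13 portal-only cells.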

How the results depend on the processing

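The number of genes called for HFD against NCD (981) was 442 with DESeq2 size factors, 381 with the gate at 1 UMI, 2248 with the gate at 5, 1498 with stricter cell limits, 1743 without Ptprc cells (737 higher, 1006 lower), 1475 without Vwf cells, 1966 with no gene filter, 495 without predicted doublets and 2267 in the sinusoidal subset. In that order JQF against HFD (44) gave 6, 0 (979 genes at an unadjusted p below 0.05, edgeR), 161 (40 higher, 121 lower), 138, 113, 344, 411, 90 and 188, and it gave 76 with DESeq2, 68 with library totals and 99 after thinning. The class test (236) gave 379 with DESeq2, 435 with the gate at 5, 628 without Ptprc cells, 74 without Vwf cells and 931 with no gene filter, and 66 to 206 when 1 library was left out, 66 without NCD and 120 without JQF. The cause of these shifts was not tested. Library totals moved the median log2 change of all genes in HFD against NCD to 0.12 and no gene filter to -0.22, and DESeq2 moved that of the class test to 0.13.

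The central share moved in NCD to 71.9% without Ptprc cells, 70.3% without Vwf cells, 59.6% without Kit, 67.1% without Rspo3 and 66.9% counted in cells. In HFD it moved to 80.1% without Vwf cells, 76.9% without Rspo3 and 75.8% in cells, and to 84.4 to 94.3% with 1 HFD library. In JQF it moved to 78.8% without Vwf cells, 83.7% without Kit, 74.4% without Rspo3 and 76.2% in cells. The settings without Vwf cells and without Rspo3 were chosen after seeing the data. Without thinning, 1 member (Rspo3) was detected more often in both HFD libraries, and at 5000 UMIs 3 central-portal pairs were below 0 throughout.

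Rspo3 missed the threshold in edgeR with DESeq2 size factors (log2 fold change 2.43, adjusted p = 0.0818), the gate at 1 (1.75, 0.104), without predicted doublets (2.64, 0.0625) and without Vwf cells (0.90, 0.279), against 2.43 in the whole gate. For HFD against NCD the sign turned for Wnt2 with the gate at 5 (0.16), without Ptprc cells (0.41), without doublets (0.094), in the sinusoidal subset (0.068) and after thinning (0.22), for Lyve1 with the gate at 1 (-0.074) and for Wnt9b without Vwf cells (-0.74). It also turned for Dll4 in JQF against HFD without Ptprc cells (-0.078), and in the class test for Bmp6 with DESeq2 (0.14), library totals (0.044), without JQF (0.26) and without NCD (0.45), and for Lyve1 without Vwf cells (-0.036) and without HFD replicate 1 (-0.077). With 1 library left out, the class values ran from -0.40 to 0.45 for Bmp6 and from -0.077 to 0.60 for Lyve1. No paired analysis was possible because NCD, HFD and JQF share only the replicate number 1. HFD replicate 1 held 149 gate cells, the fewest of the 4 libraries.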
